A study of Mus musculus with 8 samples.

Results

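The enzymes examined were 10 that carry glucose through glycolysis to pyruvate, chosen by name: the hexokinases Hk1 and Hk2, the isomerase Gpi1, the phosphofructokinases Pfkl, Pfkm and Pfkp, and Aldoa, Tpi1, Pgk1 and Pkm. They were compared in pancreatic islets of AKR/J mice and C57Bl/6J mice, 2 inbred strains that had both been fed a high-fat diet for 3 months. Each strain had 4 arrays, with AKR/J on arrays 1 to 4 and C57Bl/6J on arrays 5 to 8, and islet RNA from the pancreases of 2 mice was pooled for each array, so the p-values measure the spread between pools. Age and sex are not given in the labels. With the same diet in all samples, an effect of the diet cannot be measured. A strain difference in the response to it cannot be told apart from one present without it. Of 45037 probe sets on the Affymetrix mouse arrays that are no controls, 22 name 1 of these enzymes alone, and they cover 9 of the 10 enzymes, out of 18193 genes that a probe set names alone. Gpi1 was not analysed here. A further probe set that names Hk1 together with 5 other genes was left out. For 8 of the genes, 19 of the 22 probe sets were detected on at least 4 of the 8 arrays and were tested.

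Glycolysis begins when a hexokinase phosphorylates glucose, becomes committed at phosphofructokinase and yields ATP at phosphoglycerate kinase and pyruvate kinase. In pancreatic beta cells the rate of this pathway follows the glucose concentration and sets the ATP signal that closes potassium channels and releases insulin. Beta cells take up glucose by a low-affinity transporter, phosphorylate it by a low-affinity hexokinase isoenzyme, and normally hold the high-affinity hexokinases at low levels. Phosphofructokinase is a tetramer whose liver (Pfkl), muscle (Pfkm) and platelet (Pfkp) subunits come from separate genes and can mix in 1 enzyme, and the muscle subunit has been linked to oscillations of glycolysis in rodent beta cells.

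Values are on the log2 scale of the authors' GCRMA intensities unless stated, and differences are AKR/J minus C57Bl/6J. Levels of different probe sets are not comparable, since each has its own hybridisation strength. The share of probe sets detected on an array ran between 43.7% and 47.0% in AKR/J and between 45.7% and 48.1% in C57Bl/6J. All 9 islet endocrine markers that a probe set names alone were detected on at least 4 of the 8 arrays and so were tested. Their summed linear intensities were 227569 to 250371 on AKR/J arrays and 196445 to 214582 on C57Bl/6J arrays. Of the 9, 2 were higher and 1 was lower in AKR/J. Markers of other cells also differed between the strains, and their part in the results below was not tested. Of the markers of acinar cells, the enzyme-secreting cells around islets, 13 of 14 were lower in AKR/J, and their summed intensities were 220396 to 255538 on AKR/J arrays and 365834 to 373046 on C57Bl/6J arrays. The acinar regulator Rbpjl was not detected on any array. Macrophage markers were lower for 7 of 12 genes (sums of 1869 to 2405 on AKR/J arrays and 3309 to 4393 on C57Bl/6J arrays), and cell cycle genes were higher for 8 of 10 (sums of 1979 to 2881 on AKR/J arrays and 1075 to 1552 on C57Bl/6J arrays). Endothelial markers were higher for 4 of 10 genes, fibroblast markers were higher for 1 and lower for 2 of 9, and 3 red cell markers were not detected on any array. Over all genes, 16.3% passed the same test in either direction. In such bulk samples, fewer cells of a type and less RNA per cell cannot be told apart.

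None of the 8 tested enzymes of the chosen 10 differed between the strains past the threshold. By limma's test with Benjamini-Hochberg adjustment over all 20772 probe sets tested, 0 of the 19 probe sets passed an adjusted p of 0.05, with adjusted p-values of 0.0513 to 0.986, in a comparison in which 14.3% of all probe sets passed (6.59% higher and 7.70% lower in AKR/J). Counting each gene by its brightest tested probe set, 0 of 8 genes passed, against 16.3% of 10891 genes (7.79% higher and 8.53% lower). At an unadjusted p under 0.05 there were 4 of 19, against 30.0% of all probe sets, and 2 of 19 passed when the second deposited measure, the MAS5-type Signal, was fitted in place of GCRMA, against 10.9%. A p above the threshold does not show equal expression, so the intervals matter. With GCRMA values, the 95% intervals of all 19 differences lay between -0.64 and 0.57, that is between 1.56-fold lower and 1.49-fold higher in AKR/J. This range is no limit for dim probe sets, whose values GCRMA draws toward a common floor. By Signal, the dim Hk1 probe set 1420901_a_at differed by 0.98 (adjusted p = 0.176 by limma), outside that range. The median difference of the 8 genes was 0.07, against 0.000123 over all genes, and their median absolute difference was 0.19, also 0.19 over all genes. The members varied among pools about as other genes did, with pooled within-strain SDs of 0.01 to 0.26 (median 0.14), against a median of 0.18 over all probe sets.

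**Figure D1:**
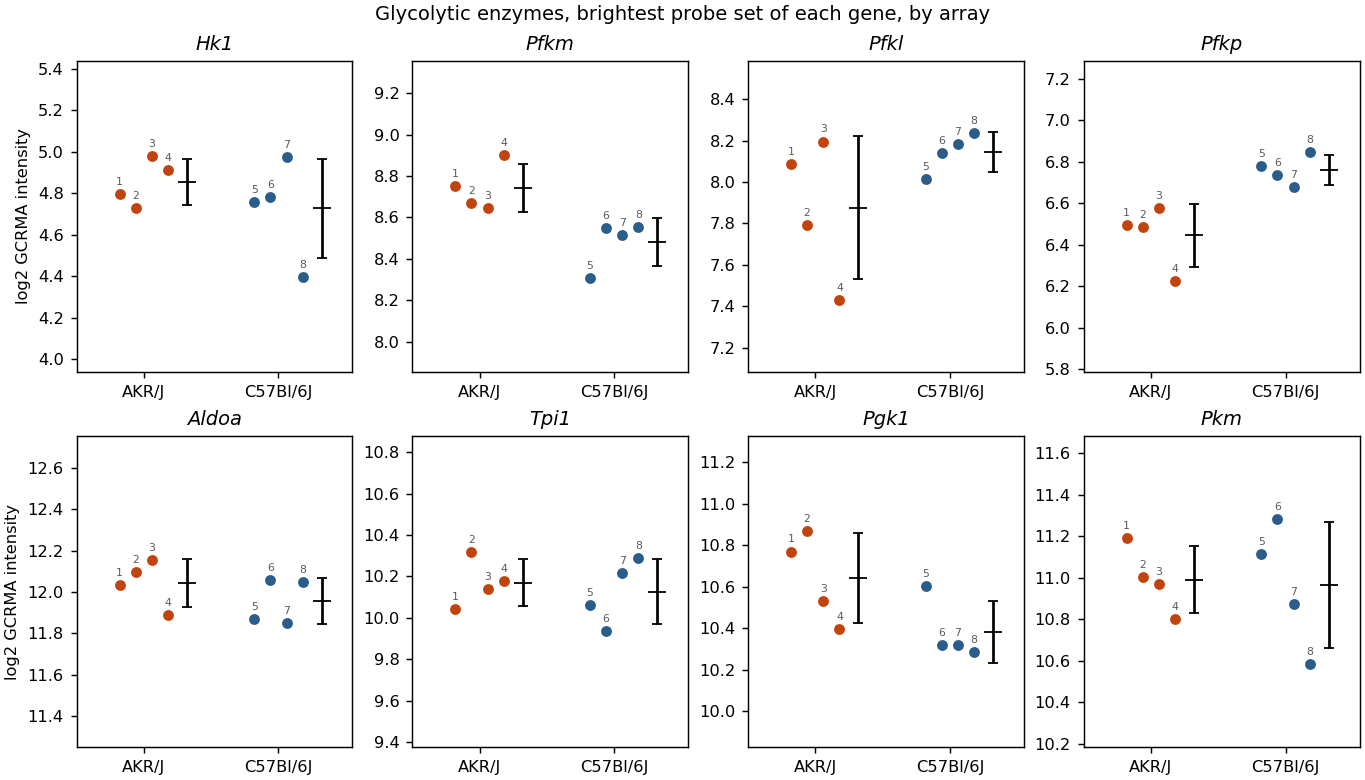
GCRMA intensity (log2) of the brightest probe set of each enzyme on each array, AKR/J at the left and C57Bl/6J at the right of each panel, with the mean and SD of 4 arrays and small array numbers beside the points. Pfkm is higher on every AKR/J array and Pfkp lower on every AKR/J array than on any C57Bl/6J array, and the points of the other enzymes overlap.

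Of the hexokinases, Hk1 was detected on every array by its brighter probe set, and Hk2 was at the edge of detection. Hk1, the high-affinity hexokinase of most tissues, had 4.80, 4.73, 4.98 and 4.91 in AKR/J and 4.76, 4.78, 4.97 and 4.40 in C57Bl/6J by probe set 1437974_a_at, which was detected on all 8 arrays. The lowest value belonged to array 8 of C57Bl/6J and the strains overlapped. The difference was 0.13 (95% interval -0.16 to 0.42, adjusted p = 0.54 by limma). The other Hk1 probe set, 1420901_a_at, was detected on 3 AKR/J and 2 C57Bl/6J arrays and differed by 0.18 (adjusted p = 0.381). Its Signal was 49.4, 43.6, 57 and 37.4 in AKR/J and 40.0, 14.7, 12.0 and 44.6 in C57Bl/6J, so the gap lay on arrays 6 and 7 and the strains overlapped there too. Hk2, the insulin-regulated hexokinase of muscle and fat that tumours and stressed beta cells can raise, was not tested. Its probe set 1422612_at was detected on 0 of 4 AKR/J arrays and on 1 of 4 C57Bl/6J arrays, with GCRMA values of 2.60, 2.61, 2.60 and 2.61 in AKR/J and 2.71, 2.96, 2.57 and 2.60 in C57Bl/6J. These sit near the lower end of the scale, where a difference was not detectable.

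The phosphofructokinases, which catalyse the committed step, held the 2 enzymes whose strains did not overlap by their brightest probe set, and these went in opposite directions. They were 2 of the 8 tested enzymes, against 25.1% of all genes by the same measure, so their share was near the background. Promoter windows of the 3 genes are shown, each from 250 bases before to 50 after an annotated start in RefSeq's GRCm38.p6. Capitals mark ACGTG, the core of hypoxia response elements, or its complement. The window of Pfkm lies at chr15:98092339-98092638 on the plus strand, that of Pfkl at chr10:78009758-78010057 and that of Pfkp at chr13:6648722-6649021, both on the minus strand.
Pfkm: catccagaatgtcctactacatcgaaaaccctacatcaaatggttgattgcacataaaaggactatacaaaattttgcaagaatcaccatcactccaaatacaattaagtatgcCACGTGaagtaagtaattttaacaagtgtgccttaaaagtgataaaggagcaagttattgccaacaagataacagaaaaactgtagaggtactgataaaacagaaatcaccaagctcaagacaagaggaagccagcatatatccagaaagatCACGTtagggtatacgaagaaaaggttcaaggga
Pfkl: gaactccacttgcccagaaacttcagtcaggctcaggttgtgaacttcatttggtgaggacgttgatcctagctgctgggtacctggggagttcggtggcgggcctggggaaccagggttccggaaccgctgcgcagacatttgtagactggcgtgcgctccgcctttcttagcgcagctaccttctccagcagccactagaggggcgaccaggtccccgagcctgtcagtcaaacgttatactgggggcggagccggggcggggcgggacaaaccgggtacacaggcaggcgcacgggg
Pfkp: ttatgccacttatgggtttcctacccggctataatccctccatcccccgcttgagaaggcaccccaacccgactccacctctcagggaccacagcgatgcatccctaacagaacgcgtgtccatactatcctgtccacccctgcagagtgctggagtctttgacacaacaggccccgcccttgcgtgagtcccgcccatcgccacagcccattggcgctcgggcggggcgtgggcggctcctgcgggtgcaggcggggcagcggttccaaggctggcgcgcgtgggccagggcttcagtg
The Pfkm window holds ACGTG 3 times on either strand. A pair of these overlaps as the E box CACGTG, at 136 and 135 bases before the start, and the other lies 16 bases after it. The Pfkl and Pfkp windows hold none. Pfkm has 4 annotated windows, and the one shown, which was chosen for its matches, holds the most: another holds ACGTG 1 time and the other 2 hold none, as for Pfkl and Pfkp. The window shown has 36.7% G and C, against 53.7%, 59.0% and 53.0% for the other Pfkm windows. The Pfkl window has 62.3% and the Pfkp window 64.7%. Over all 10 enzymes, 8 of 17 windows (47.1%), in 6 genes, hold ACGTG, against 19.6% of the 32851 windows in the table, and 1 of 17 (5.88%) holds CACGTG, against 7.15%. Windows of the same gene can overlap, and the Aldoa windows with a match hold the same site, counted in each. The share of all genes with a match was not computed, so the count of 6 genes has no background. A match of letters is a description, not a binding site.

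Pfkm, the muscle-type subunit, had 8.75, 8.67, 8.65 and 8.90 in AKR/J and 8.31, 8.55, 8.51 and 8.55 in C57Bl/6J by its only probe set, 1416780_at. Every AKR/J array was above every C57Bl/6J array, and array 5 of C57Bl/6J lay apart below the other 3. The means were 8.74 ± 0.12 across AKR/J arrays and 8.48 ± 0.12 across C57Bl/6J arrays (SD, n = 4 each), a difference of 0.26 (1.20-fold, 95% interval 0.06 to 0.46) that did not pass limma's test (adjusted p = 0.088). Without array 5 the difference was 0.20. By Signal every AKR/J array was also above every C57Bl/6J array, with 632.7, 595.2, 578.1 and 699.7 in AKR/J and 497.8, 543.1, 568.4 and 556.2 in C57Bl/6J. In limma's fit of Signal the difference was 0.20, with an adjusted p of 0.259.

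Pfkp, the platelet-type subunit, had 6.50, 6.49, 6.58 and 6.23 in AKR/J and 6.78, 6.74, 6.68 and 6.85 in C57Bl/6J by probe set 1416069_at. Every AKR/J array was below every C57Bl/6J array, and array 4 was the lowest. The means were 6.45 ± 0.15 across AKR/J arrays and 6.76 ± 0.07 across C57Bl/6J arrays (SD, n = 4 each), a difference of -0.31 (1.24-fold lower, 95% interval -0.52 to -0.11) with an adjusted p of 0.0513 by limma. Its place against the threshold turned on the setting. By limma, the adjusted p was 0.0459 with Signal, where the difference was -0.56, and 0.0468 without array 3 of AKR/J. It was 0.0467 with array weights and 0.0449 when adjusted over 1 probe set per gene, by which 17.6% of all genes passed. With the mean of a gene's probe sets Pfkp also passed. Only 1 Pfkp probe set was tested, so its values are the same there. That setting differs for Pfkp only in the genes fitted and adjusted with it. In the other settings limma's adjusted p stayed over 0.05. Among these were 0.0866 with no filter, 0.0746 with further quantile normalization and 0.0914 after centring. Without any other 1 array it was 0.0653 to 0.107. In Signal units Pfkp had 133.6, 136.6, 202.8 and 134.4 in AKR/J and 212.7, 226.8, 213.3 and 237.8 in C57Bl/6J, so array 3 was the AKR/J array nearest to C57Bl/6J. The other Pfkp probe sets, 1430634_a_at and 1437759_at, did not reach the detection filter and were not tested.

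Pfkl, the liver-type subunit, had 8.09, 7.79, 8.20 and 7.43 in AKR/J and 8.01, 8.14, 8.18 and 8.24 in C57Bl/6J by probe set 1439148_a_at. The AKR/J arrays were widely spread, with arrays 2 and 4 below all of C57Bl/6J and arrays 1 and 3 within it, and the means were 7.88 ± 0.34 across AKR/J arrays and 8.14 ± 0.10 across C57Bl/6J arrays (SD, n = 4 each). The difference of -0.27 (95% interval -0.64 to 0.10) had an adjusted p of 0.309 by limma. A dimmer probe set, 1450269_a_at, differed by -0.23 (adjusted p = 0.223) with overlapping strains. The third, 1453541_at, depended on the measure. GCRMA placed it between 2.49 and 2.53 on all arrays (difference -0.0018, adjusted p = 0.986), while its Signal was 30.1, 34.8, 28.3 and 26.1 in AKR/J and 41.3, 44.5, 48.9 and 44.1 in C57Bl/6J. That Signal did not overlap between strains, was detected on 1 of 4 AKR/J and 4 of 4 C57Bl/6J arrays, and differed by -0.58 with an adjusted p of 0.0149 in limma's fit of Signal.

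Set against each other within an array, the phosphofructokinase subunits showed an unequal difference between the strains. The log2 ratio of Pfkp to Pfkm was -2.26, -2.18, -2.07 and -2.67 in AKR/J and -1.53, -1.81, -1.83 and -1.71 in C57Bl/6J. The strains did not overlap, and the ratio was lower in AKR/J by 1.49-fold (difference -0.58, exact permutation p = 0.0286, two-sided, adjusted p = 0.0429 over 3 pairs). Since every AKR/J array was higher for Pfkm and lower for Pfkp, this separation and its p followed from the single genes. The ratio is thus no separate evidence of a difference. The log2 ratio of Pfkl to Pfkm was -0.66, -0.88, -0.45 and -1.47 in AKR/J and -0.29, -0.41, -0.33 and -0.32 in C57Bl/6J. It too did not overlap, was lower in AKR/J by 1.44-fold (difference -0.53, exact permutation p = 0.0286, adjusted p = 0.0429), and varied more among AKR/J pools (SD 0.44) than among C57Bl/6J pools (SD 0.05). The ratio of Pfkl to Pfkp averaged 1.43 ± 0.21 across AKR/J arrays and 1.38 ± 0.11 across C57Bl/6J arrays (SD, n = 4 each) with overlapping strains (difference 0.05, exact permutation p = 0.743). An exact p of 0.0286 is the smallest that the 70 assignments of 8 arrays allow, and the pairs share genes. The plan held 4 pairs, but that of Hk2 and Hk1 was not tested, so the adjustment was over 3. The adjusted p of 0.0429 depends on this number of pairs. With Signal the Pfkp to Pfkm difference was -0.76 and the strains again did not overlap, with an exact permutation p of 0.0286 and an adjusted p of 0.0857 over the 3 pairs. Each of these genes already separated the strains by Signal. The Pfkl to Pfkm difference was -0.44 with Signal, and there the strains overlapped (exact permutation p = 0.114, also after adjustment). Pfkl to Pfkp differed by 0.32 with Signal and by 0.15 with the mean of each gene's probe sets, with overlapping strains and an adjusted exact permutation p of 0.0857 in both. Both ratios to Pfkm had an adjusted exact permutation p of 0.0857 without any 1 C57Bl/6J array, with 3 arrays left in that strain. Without array 4 of AKR/J, the lowest in both, the Pfkl to Pfkm difference was -0.33.

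**Figure D2:**
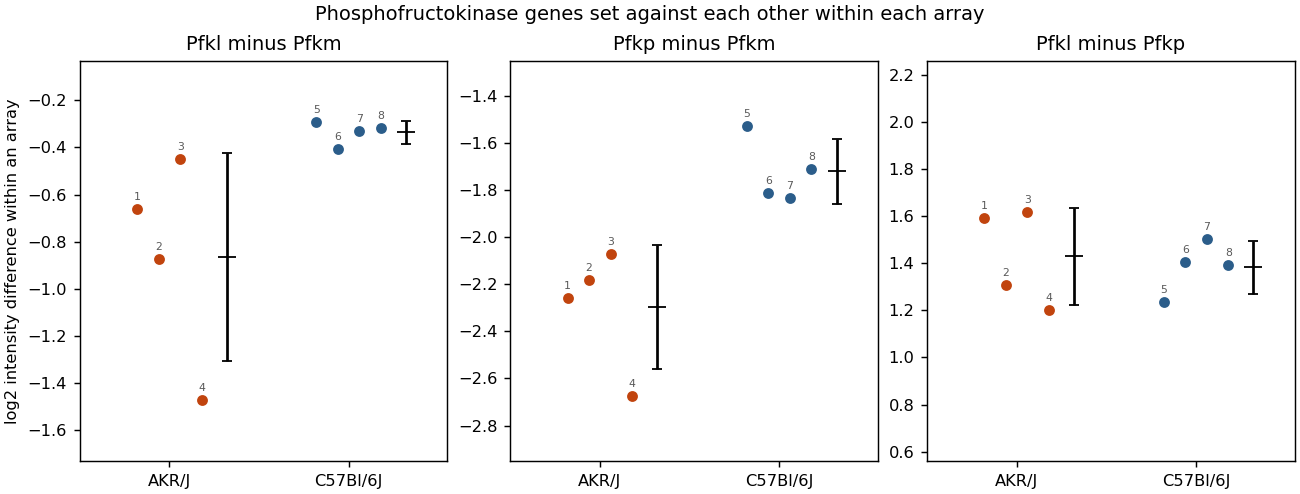
Log2 ratios of the phosphofructokinase subunits within each array, AKR/J at the left and C57Bl/6J at the right, with the mean and SD of 4 arrays. Both ratios to Pfkm are lower on every AKR/J array than on any C57Bl/6J array, by 1.49-fold for Pfkp and 1.44-fold for Pfkl, and the ratio of Pfkl to Pfkp overlaps.

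Aldoa, the aldolase that splits fructose bisphosphate, was measured by 5 probe sets that did not all have the same sign. All 5 carry the suffix _x_at, which Affymetrix gives to probe sets whose probes may bind other transcripts, so signals of related sequences cannot be separated. The brightest, 1434799_x_at, had 12.03, 12.09, 12.16 and 11.89 in AKR/J and 11.87, 12.06, 11.85 and 12.05 in C57Bl/6J, with overlapping strains and a difference of 0.09 (95% interval -0.11 to 0.29, adjusted p = 0.542 by limma). By contrast, 1439375_x_at had 10.09, 10.25, 10.12 and 10.20 in AKR/J and 10.34, 10.47, 10.31 and 10.69 in C57Bl/6J, every AKR/J array lying below C57Bl/6J. That difference of -0.28 (95% interval -0.51 to -0.06) had an adjusted p of 0.0896 by limma. Probe set 1416921_x_at also separated the strains, with 10.94, 11.00, 10.96 and 10.95 in AKR/J and 11.11, 11.19, 11.07 and 11.41 in C57Bl/6J (difference -0.23, adjusted p = 0.112 by limma). The other two, 1433604_x_at and 1447734_x_at, differed by -0.08 and -0.23 with overlapping strains.

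Counted over the 19 tested probe sets, those of Pfkm, of Pfkp and the 2 lower ones of Aldoa were the 4 whose strains did not overlap, against 22.9% of all probe sets (12.3% higher and 10.6% lower in AKR/J). By Signal 4 of 19 did not overlap, against 19.3%, and 3 of 19, those of Pfkm, Pfkp and Aldoa 1439375_x_at, did so by both measures in the same direction, against 12.9%. These shares lie near the background. A base that differs between the strains under a probe would shift its value in the same way as a transcript difference, and these cannot be told apart here.

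**Figure D3:**
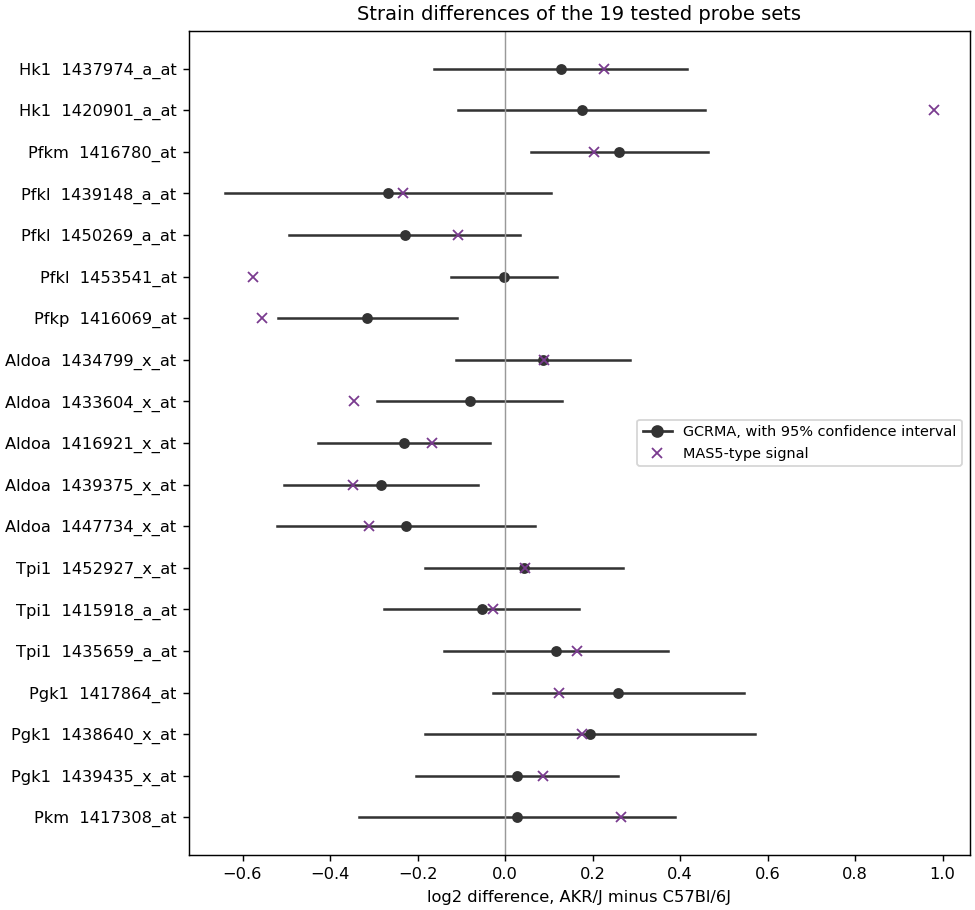
AKR/J minus C57Bl/6J difference (log2) of each of the 19 tested probe sets, with the 95% interval of the GCRMA fit, and crosses for the same difference by MAS5-type Signal. All intervals lie between -0.64 and 0.57, and 0 of the 19 probe sets change sign between the measures.

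Tpi1, triose phosphate isomerase, did not differ beyond the spread between pools. Its brightest probe set, 1452927_x_at, had 10.04, 10.32, 10.14 and 10.18 in AKR/J and 10.06, 9.94, 10.22 and 10.29 in C57Bl/6J, with overlapping strains and a difference of 0.04 (95% interval -0.18 to 0.27, adjusted p = 0.809 by limma). The other Tpi1 probe sets, 1415918_a_at and 1435659_a_at, differed by -0.05 and 0.12, with adjusted p-values of 0.755 and 0.525.

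Pgk1, the phosphoglycerate kinase of the first ATP-yielding step, had 10.77, 10.87, 10.53 and 10.40 in AKR/J and 10.60, 10.32, 10.32 and 10.29 in C57Bl/6J by probe set 1417864_at. Array 5 of C57Bl/6J stood above the rest of its strain and within AKR/J, so the strains overlapped. The means were 10.64 ± 0.22 across AKR/J arrays and 10.38 ± 0.15 across C57Bl/6J arrays (SD, n = 4 each), and the difference of 0.26 (95% interval -0.03 to 0.55) had an adjusted p of 0.206 by limma. It was 0.33 without array 5. The other Pgk1 probe sets differed by 0.19 (1438640_x_at) and 0.03 (1439435_x_at).

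Pkm, the pyruvate kinase of most tissues outside liver and red cells, closes the pathway and was strongly detected. It had 11.19, 11.00, 10.97 and 10.80 in AKR/J and 11.12, 11.28, 10.87 and 10.59 in C57Bl/6J by probe set 1417308_at. The C57Bl/6J pools spanned both the highest and the lowest of all values, and the difference was 0.03 (95% interval -0.33 to 0.39, adjusted p = 0.929 by limma). This was the widest spread of the C57Bl/6J pools among the 8 brightest probe sets (SD 0.30, against 0.16 in AKR/J). The 2 splice forms of Pkm were not told apart.

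No array carried all the enzymes up or down together. Taken as the mean deviation of the 8 enzymes from their own means, arrays ran between -0.11 (array 4 of AKR/J, where 3 of 8 were above their mean) and 0.07 (array 3 of AKR/J, 5 of 8). Pfkl contributed the lowest deviation of array 4, at -0.58. The array's own Gapdh control probe sets, which mark the ends of the transcript of a glycolytic enzyme, overlapped between the strains: the 3' set averaged 12.17 ± 0.16 across AKR/J arrays and 12.21 ± 0.13 across C57Bl/6J arrays (SD, n = 4 each). The 3' minus 5' difference of these control sets, a sign of RNA integrity, was -0.29, -0.33, -0.24 and -0.26 in AKR/J and -0.19, -0.22, -0.22 and 0.11 in C57Bl/6J. All AKR/J arrays lay below all C57Bl/6J arrays by this difference, so it separates the strains, also without array 8, which stood apart from the others. Its part in the enzymes' values was not tested. Without array 8 no member passed the threshold, the lowest adjusted p being 0.107 by limma, and Pkm differed by -0.10.

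Around these enzymes, the glucose transporter Slc2a2 was lower and the enolase Eno2 higher in AKR/J, and the other tested genes of the pathway did not pass by their brightest probe set. Of 29 other genes of glycolysis and its control, 24 were named by a probe set and 19 were tested; 1 was higher in AKR/J, 1 was lower and 17 did not pass, against 7.79% of all genes higher and 8.53% lower. Their median difference was -0.15, against 0.000123 over all genes, and 13 of 19 were negative. Eno2, the enolase of neurons and endocrine cells that acts between Pgk1 and Pkm, had 8.26, 7.89, 8.60 and 8.33 in AKR/J and 7.65, 7.55, 7.57 and 7.59 in C57Bl/6J. All AKR/J arrays were above all C57Bl/6J arrays, and Eno2 rose by 0.68 (1.6-fold, adjusted p = 0.0152 by limma). Slc2a2, the low-affinity transporter GLUT2 by which mouse beta cells admit glucose, had 11.83, 11.93, 12.23 and 12.18 in AKR/J and 12.46, 12.74, 12.69 and 12.51 in C57Bl/6J. All AKR/J arrays were below all C57Bl/6J arrays, and Slc2a2 fell by 0.56 (1.47-fold lower, adjusted p = 0.0152 by limma). The 2 brightest of the others were G6pc2, the islet glucose-6-phosphatase subunit that opposes hexokinase, with a difference of -0.23 (adjusted p = 0.0516 by limma), and Pgam1, phosphoglycerate mutase, with 0.0035 (adjusted p = 0.982). Ldhb, a lactate dehydrogenase subunit named after its values were seen, differed by -0.45 by its brightest probe set (adjusted p = 0.14 by limma) and by -0.71 by another that did pass (adjusted p = 0.0252). Not detected on any array were Fbp2, Gckr, Hk3, Hkdc1 and Pgam2, and the other 5 were not analysed here. Both calls held without any 1 array, with adjusted p-values up to 0.0457 for Eno2 and 0.0464 for Slc2a2 by limma, but neither passed with only 4 arrays (1, 2, 5 and 6, or 3, 4, 7 and 8).

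**Figure D4:**
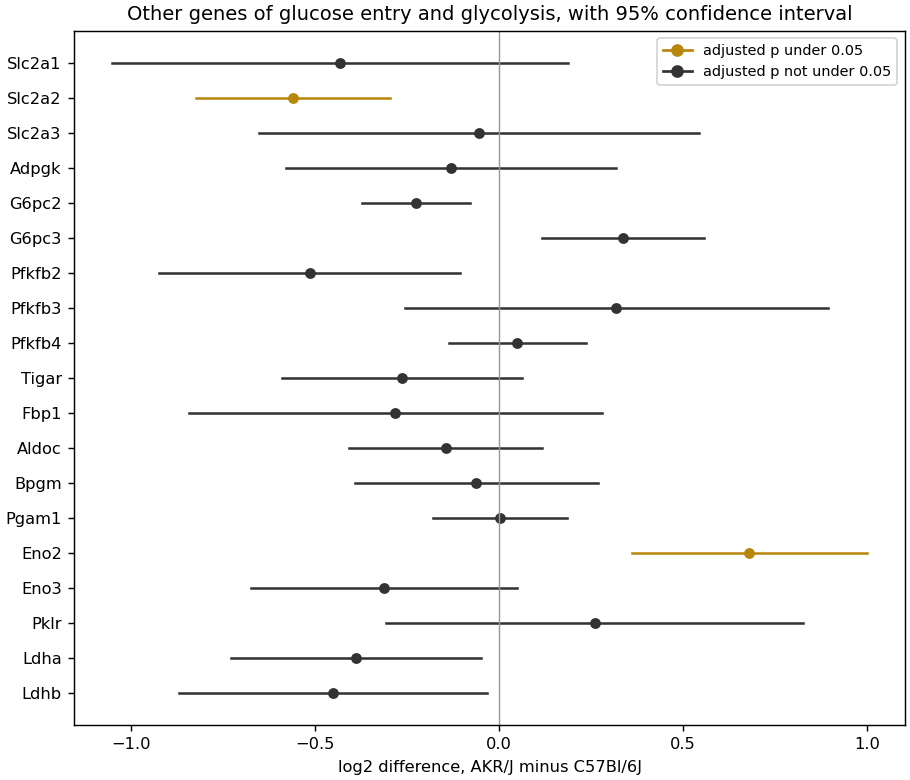
AKR/J minus C57Bl/6J difference (log2) of the 19 other tested glycolysis genes by their brightest probe sets, with 95% confidence intervals as lines. Gold marks an adjusted p under 0.05 (Eno2 at 0.68 and Slc2a2 at -0.56), and the other 17, in black, did not pass.

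Several of the enzymes, Pgk1, Aldoa and Hk2 among them, are targets of the hypoxia-inducible factors, so a list of 25 genes of the hypoxia response, 4 of which are also among the other glycolysis genes, was set beside them. Of 20 tested, 1 was higher in AKR/J, 3 were lower and 16 did not pass, against 7.79% of all genes higher and 8.53% lower, and their median difference was -0.01. P4ha2, a prolyl hydroxylase of collagen, rose by 1.28 (2.42-fold, adjusted p = 0.00495 by limma). Kdm3a, a histone demethylase, fell by 0.67 and Higd1a, a mitochondrial protein, fell by 0.99, with adjusted p-values of 0.0204 and 0.0216 by limma. Hif1a, the oxygen-regulated factor itself, fell by 0.45 by its brightest probe set (adjusted p = 0.0389 by limma), but its other probe sets differed by 0.01 and -0.02, and those of Higd1a by -0.32 and -0.05, and did not pass. Pdk1, a kinase that holds back pyruvate dehydrogenase and is named after its values were seen, differed by 0.28 by its brightest probe set (adjusted p = 0.273 by limma) and by -1.38 by another that passed (adjusted p = 0.00814). The 3 lower calls were 1 without array 1, 2, 4, 6 or 7. Of 12 tested genes at branch points of glycolysis (pentose phosphate, glycogen, hexosamine, glycerol and serine routes), 0 passed in either direction by their brightest probe set, against 16.3% of all genes, with a median of -0.06. A dimmer probe set of Gpd1, glycerol-3-phosphate dehydrogenase, named after its values were seen, did pass (difference 0.32, adjusted p = 0.0335 by limma), and its brightest did not (0.18, adjusted p = 0.421). The 2 brightest were Gfpt1, which opens the hexosamine route, with a difference of -0.09, and the transketolase Tkt, with -0.03.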

How the data were processed

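Total RNA (5 µg per array, per the labels) of islets from 4 AKR/J and 4 C57Bl/6J pools was measured on Affymetrix mouse expression arrays. Linear intensity values for all samples were computed by the authors with GCRMA (version not stated in the submitters' processing notes), which models background from probe sequence, normalizes arrays together and draws dim signals toward a common floor. A second deposited intensity, Signal, comes with a p-value of detection per probe set and array, per the file headers; it is of the MAS5 type, with a trimmed mean of 150 on every array. Array quantiles of the value table agreed within 0.0904 on the log2 scale, so the values were only log2-transformed.

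Of 45101 probe sets, 64 controls were left out. The platform annotation names 34945 others by 1 gene symbol and 932 by several, and 9160 carry no symbol. Entrez identifiers matched 34754 to RefSeq, which changed 0 symbols. The 20772 probe sets with a detection p-value under 0.05 on at least 4 of 8 arrays were fitted with limma 3.58.1 (lmFit and eBayes, R 4.3.3), with Benjamini-Hochberg adjustment over all of them and a threshold of 0.05. A gene was represented by its brightest tested probe set. Ratios of isoenzymes were tested by exact permutation over 70 assignments, two-sided, adjusted over 3 pairs. The fit was tested on simulated data. Named beyond the enzymes were list genes past the threshold and the 2 brightest others of each list; with no enzyme past the threshold, no genes of like pattern were named. Promoter windows came from RefSeq's table (GRCm38.p6) and were searched on both strands.

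Precision is limited by the number of arrays. The files give no scan date, so no batch was known and the main fit has no batch term. The members and lists were chosen with earlier results of these data known. Alternatives were other filters, MAS5-type Signal, further scaling, limma options, the array sets (as a block and each alone) and leaving out each array. One alternative, adjusting over 1 probe set per gene, was chosen after seeing the data.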

Additional observations from a re-analysis of the deposited data

Results flagged for a closer look

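Over both strains, 44 groups of 4 arrays (the 22 probe sets of the enzymes in both strains) were searched for a single array far from the other 3, and 2 were found; chance alone gives about 1 in 20 groups. Both were array 5 of C57Bl/6J. Pfkm (1416780_at) was 8.31 on this array, and 8.51 to 8.55 on the other C57Bl/6J arrays, a gap of 0.836 of the group's range. Pgk1 (1417864_at) was 10.60 on it, and 10.29 to 10.32 on the others, a gap of 0.894 of the range. The array was thus low for one enzyme and high for the other. Without it the AKR/J minus C57Bl/6J difference was 0.20 for Pfkm and 0.33 for Pgk1, and neither passed limma's test (adjusted p = 0.169 and 0.138).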

How the results depend on the processing

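Of the 19 differences, 0 passed the threshold in the main fit (GCRMA values, all arrays, no array weights and no block). Under the alternatives, 0 reversed to a called difference. The count of enzymes lower in AKR/J was 1, always Pfkp, with MAS5-type Signal, array weights, the mean of a gene's probe sets and adjustment over 1 probe set per gene, and it was 0 to 1 without any 1 array (1 without array 3). Signs turned for differences near 0. Pfkl 1453541_at was 0.042 after centring, 9.34e-05 with array weights, 0.0078 on arrays 1, 2, 5 and 6, and -0.0083 to 0.0060 without single arrays. Hk1 1437974_a_at was -0.0060 and Pkm -0.10 on arrays 1, 2, 5 and 6, and Pkm was -0.015 with array weights. Tpi1 1452927_x_at was -0.092 and Pgk1 1439435_x_at -0.099 on arrays 3, 4, 7 and 8. Without single arrays, Pkm ran between -0.10 and 0.13, Pgk1 1439435_x_at between -0.036 and 0.069, Tpi1 1452927_x_at between -0.019 and 0.098 and Tpi1 1415918_a_at between -0.10 and 0.026. With the array sets as a block, Aldoa 1447734_x_at had an adjusted p of 0.0487 by limma (difference -0.23).

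Strain differences in isoenzyme ratios were -0.76 (Pfkp to Pfkm) and -0.44 (Pfkl to Pfkm) with Signal and no longer passed after adjustment. Pfkl to Pfkp, 0.05 with GCRMA values of the brightest probe sets, was 0.32 with Signal and 0.15 with the mean of probe sets, and passed in neither. Without single arrays they were -0.65 to -0.45 and -0.67 to -0.33, and Pfkl to Pfkp was -0.017 to 0.12. Other glycolysis genes higher in AKR/J numbered 2 with further quantile normalization, centring, the mean of probe sets and adjustment per gene, 0 within either array set, and 1 to 2 without single arrays. Those lower numbered 2 with no filter, quantile normalization, trend and robust, the block, the mean of probe sets and adjustment per gene, 0 within either array set, and 1 to 3 without single arrays. Hypoxia genes higher numbered 2 with Signal and the block, 0 within either array set, and 1 to 2 without single arrays. Those lower numbered 0 with no filter, 1 with the mean of probe sets, 1 on arrays 1, 2, 5 and 6, 0 on arrays 3, 4, 7 and 8, and 1 to 4 without single arrays. Fits within an array set have 4 arrays; for the other settings the cause was not tested. Among all 20772 tested probe sets, 2968 passed on all 8 arrays in the main fit, and this background moved with the setting. It was 2259 with Signal, 3020 with further quantile normalization, 3157 after centring and 3138 with trend and robust. It was 3143 with array weights, 3678 with the block and 2047 to 2820 without single arrays. With no filter it was 2088 of 45037. Adjusted per gene, 1919 of 10891 genes passed. For the mean of probe sets no background is given. Within the array sets, 1054 passed on arrays 1, 2, 5 and 6 and 403 on arrays 3, 4, 7 and 8. These array sets came from earlier results of these data, not from the labels. No paired analysis was possible because the array numbers are not shared between the strains. Signal near background limits Hk2 and the dim probe sets of Pfkl and Pfkp.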
